A study of Mus musculus with 6 samples.

Results

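Transcripts of 45 genes of glycolysis, the pentose phosphate pathway and the citrate cycle were compared between haematopoietic stem cells (HSCs) of young and old mice. The genes were chosen by name as central carbon metabolism genes and matched by Ensembl identifier. All 45 had a row among the 16312 genes of the count table, and all 45 were among the 14288 genes that passed the filter on low counts. They were placed in 8 groups by their step: 2 glucose transporters, 10 genes of upper glycolysis, 3 PFKFB regulators, 6 genes of lower glycolysis, 4 genes of lactate handling, 5 genes around pyruvate dehydrogenase, 5 pentose phosphate genes and 10 citrate cycle genes.

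The HSCs came from a flow cytometry sort of bone marrow, all mice were male, and the labels call them B6 controls in a study of parabiosis (the joining of animals by surgery) whose title names C57BL/6N. The young group held 3 samples from mice of 8 to 12 weeks and the old group 3 samples from mice of 22 months, and no allele or agent was named for either. Neither the antibodies that defined the gate nor how many cells were sorted is stated in the sources used here, so the purity of the gate is known only from the transcripts. Levels are given in CPM, counts scaled to a common library size after each library's size was adjusted by its TMM factor from edgeR. Where library size is named as the scaling, that factor was left out of the fit. Every change sets the old group over the young group. Its standard error (SE) was computed as the size of the log2 change divided by the square root of edgeR's F statistic. A gene is said to have risen or fallen where the adjusted p of edgeR's quasi-likelihood test was under 0.05. The p-values set the difference between the age groups against the variation between these samples, which edgeR estimates partly from all tested genes together.

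Glycolysis splits glucose into pyruvate in the cytosol, and its committed step, the phosphorylation of fructose 6-phosphate by phosphofructokinase, is switched on by fructose 2,6-bisphosphate, which the PFKFB enzymes make and remove. Pyruvate is then reduced to lactate by lactate dehydrogenase or enters the mitochondrion through pyruvate dehydrogenase to feed the citrate cycle, while the pentose phosphate pathway draws glucose 6-phosphate off for NADPH and ribose. Quiescent HSCs are known for relying on glycolysis, under the control of hypoxia-inducible factors and pyruvate dehydrogenase kinases, and for keeping mitochondrial respiration low.

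Libraries held between 12494557 and 30931680 counts, and 42 of the 45 genes had at least 100 counts in every library. Of the HSC markers, Mecom, Hlf and Kit stood at 433 CPM or more in every library and Cd48, which HSCs are known to lack, at 3.09 CPM or less, and Procr and Slamf1 rose with age. Other transcripts moved with age. Of 12 tested macrophage markers 8 fell and none rose, with summed levels of 58.9 to 84.8 CPM in young and 19.5 to 26.6 CPM in old libraries, and Fcna, Cd5l, C1qb and Adgre1 were at 0 in all old libraries. Neutrophil markers summed to 16.7 to 240.0 CPM in young and 5.57 to 8.52 CPM in old libraries, and erythroid markers to 72.2 to 285 CPM and 22.6 to 31.2 CPM, with young replicate 1 the highest in both lists. Of 10 genes of cycling cells 7 fell (sums of 3321 to 3864 CPM against 1562 to 2156 CPM), and all 12 immediate early genes, a list added after the data were seen, rose (408 to 479 CPM against 3696 to 4296 CPM). Of 8 megakaryocyte markers 1 rose and none fell, Vwf, at 23.1 to 53.6 CPM in young and 183 to 248 CPM in old libraries, and the summed level of the list was 96.1 to 151 CPM and 259 to 332 CPM, while Pf4 was at 29.3 to 36.0 CPM and 19.6 to 20.2 CPM. Of 5 tested endothelial markers 2 rose and none fell, Kdr (6.85-fold) and Cldn5 (18.6-fold), with sums of 123 to 193 CPM in young and 194 to 237 CPM in old libraries. The part of these lists in the results below was not tested. In young replicate 2 the title and the description disagree on the library number, and these numbers are consecutive in the old group only, so a step that followed them cannot be told apart from age. In bulk RNA, fewer cells of a type and less RNA per cell cannot be told apart either.

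Of the 45 genes 2 rose with age and 0 fell. The risen genes were Pfkfb3, whose enzyme makes the activator of phosphofructokinase, and Ldha, whose enzyme reduces pyruvate to lactate. They are 4.44% of the list, beside 2.45% of all tested genes that were higher and 1.54% that were lower in old HSCs. Over all tested genes 350 were higher and 220 lower, and with library size as the scaling the split was 310 against 298. At an unadjusted p under 0.05, 7 of the 45 genes were higher and 2 lower (8.84% and 7.63% of all tested genes). The values of young and old libraries did not overlap for 11 genes higher in old (24.4%, beside 11.6% of all tested genes) and for 2 genes lower in old (4.44%, beside 10.8%). The median change of the 45 genes was 0.03 on the log2 scale, beside −0.02 for all tested genes, and 40 of the 45 lay within 0.5 of 0. That median was 0.10 without young replicate 3 and −0.03 with library size as the scaling, where the median of all tested genes was −0.07. Without young replicate 1, young replicate 2 or any 1 of the old libraries, Pfkfb3 was the 1 gene that rose and 0 fell. Without young replicate 3, Pfkfb3 and Pfkp rose, Pgam1 fell and Ldha was not called.

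**Figure D1:**
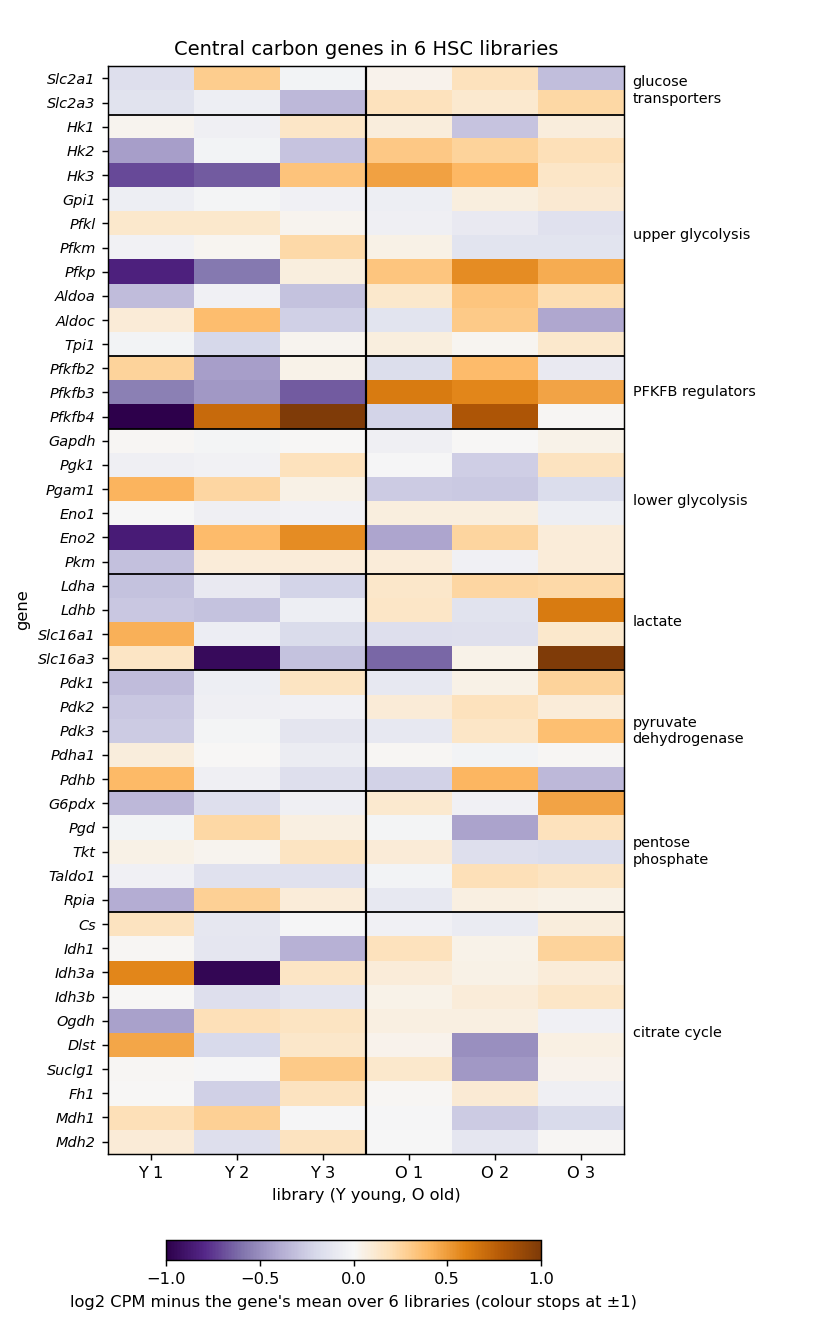
Level of the 45 genes in each of the 6 libraries. Rows are genes grouped by pathway step, columns are libraries, and the colour is log2 CPM minus the gene's mean over the 6 libraries. Pfkfb3, Hk2, Pfkp, Aldoa and Ldha are higher and Pgam1 is lower in all 3 old libraries, while most rows of the citrate cycle and the pentose phosphate pathway show no split by age.

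The regulator Pfkfb3 rose most among the genes that passed the test. Its gene lies on the reverse strand of chromosome 2 (GRCm38, chr2:11471433-11554077). Levels in young replicates 1 to 3 were 63.4, 67.2 and 58.7 CPM, and in old replicates 1 to 3 they were 144, 139 and 129 CPM. Every old library was above every young one, and both groups were tight. The means were 63.1 ± 4.27 and 137 ± 7.62 CPM (SD, n = 3), a change of 2.17-fold (log2 1.12 ± 0.127 SE, adjusted p = 0.000514, edgeR). Pfkfb3 passed in all 13 alternatives of scaling, filter, tool and samples, with log2 changes of 1.07 to 1.17 and adjusted p of 1.3e-14 to 0.00752.

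Its relatives did not pass. Pfkfb2, the isozyme known from heart, was at 63.7, 39.1 and 54.7 CPM in young and 47.2, 69.0 and 49.9 CPM in old libraries. Those ranges overlapped, and the log2 change was 0.07 ± 0.213 (adjusted p = 0.912, edgeR), with a sign that turned when young replicate 2 or old replicate 2 was left out. Pfkfb2 also shares 1262 exon bases with Gm29427 on the same strand, which makes its counts uncertain. Pfkfb4, a hypoxia-responsive isozyme, had 0.948 CPM in young replicate 1, where the other young libraries had 7.88 and 9.81 CPM, and the old ones 4.13 to 8.47 CPM. Shares per kilobase of exon were taken over Pfkfb2, Pfkfb3 and Pfkfb4. They leave out Pfkfb1, which is not among the 45 genes and averaged 0.823 CPM per kilobase in young and 0.762 in old HSCs. Pfkfb3 made up 48.3%, 55.9% and 44.8% in young and 72.1%, 62.0% and 68.4% in old libraries, while Pfkfb2 had 33.9% to 50.6% and 24.7% to 32.1%. The shares of Pfkfb3 and of Pfkfb2 each separated the groups, a description without a test.

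Ldha rose by less. It lies on the forward strand at chr7:46841475-46855627 (GRCm38). Levels were 389, 449 and 411 CPM in young and 526, 567 and 560 CPM in old libraries. The lowest old library was above the highest young one. The means were 416 ± 30.6 and 551 ± 22.0 CPM (SD, n = 3), a change of 1.32-fold (log2 0.40 ± 0.0987 SE, adjusted p = 0.0432, edgeR). The call did not hold when any 1 library was left out (adjusted p of 0.0565 to 0.18) or with library size as the scaling (0.068), and it held in 6 of 13 alternatives, over which adjusted p ran from 0.00434 to 0.18 and the log2 change from 0.35 to 0.46.

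The stretches just before a transcription start of each risen gene are shown because promoters of glycolytic genes are known to carry hypoxia response elements with the core ACGTG, E-boxes such as CACGTG and GC boxes such as GGGCGG. They come from RefSeq (GRCm38.p6) and are printed 5′ to 3′ on the gene's own strand. Capitals mark matches on either strand, so CCGCCC is the GC box and CACGT the hypoxia core read from the other strand, and CACGTG holds ACGTG on both strands. The Ldha stretch is chr7:46845554-46845803 on the forward strand, which ends next to the start at 46845804. The Pfkfb3 stretch is chr2:11502102-11502340 on the reverse strand, which ends 12 bases before the start at 11502090 because exonic bases were left out.
Ldha: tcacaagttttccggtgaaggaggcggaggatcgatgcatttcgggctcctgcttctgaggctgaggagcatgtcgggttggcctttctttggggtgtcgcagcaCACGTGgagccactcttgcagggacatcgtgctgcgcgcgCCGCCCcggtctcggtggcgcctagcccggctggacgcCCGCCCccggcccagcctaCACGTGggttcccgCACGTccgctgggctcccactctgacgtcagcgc
Pfkfb3: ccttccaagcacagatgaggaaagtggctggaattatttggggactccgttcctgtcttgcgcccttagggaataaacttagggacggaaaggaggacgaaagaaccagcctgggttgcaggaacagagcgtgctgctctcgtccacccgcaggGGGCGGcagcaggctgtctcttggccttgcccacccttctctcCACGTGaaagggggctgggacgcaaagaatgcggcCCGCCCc
The Ldha stretch holds 5 ACGTG matches counted over both strands, with 2 CACGTG and 2 GGGCGG matches. The Pfkfb3 stretch holds 2 ACGTG, 1 CACGTG and 2 GGGCGG matches. Another Ldha start in RefSeq, at 46847082, has none of the 3 motifs in the 250 bases before it, and another Pfkfb3 start, at 11553929, has 1 ACGTG, 0 CACGTG and 2 GGGCGG matches.

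Promoter entries were found for 43 of the 45 genes (all but Idh3a and Slc2a3), 66 entries in all, since some genes have several starts. In the 250 bases before the start, ACGTG on either strand stood in 27 of 66 entries (40.9%), beside 16.6% of all RefSeq promoters and 17.8% of those of protein-coding genes. CACGTG stood in 13.6% of the entries, beside 6.02% and 6.63%. GGGCGG stood in 54.5%, beside 32.7% and 42.6%. Every CACGTG match is also an ACGTG match, and the entries of a gene with several starts can share bases. These shares describe letters in a window and were not set against the changes with age.

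**Figure D2:**
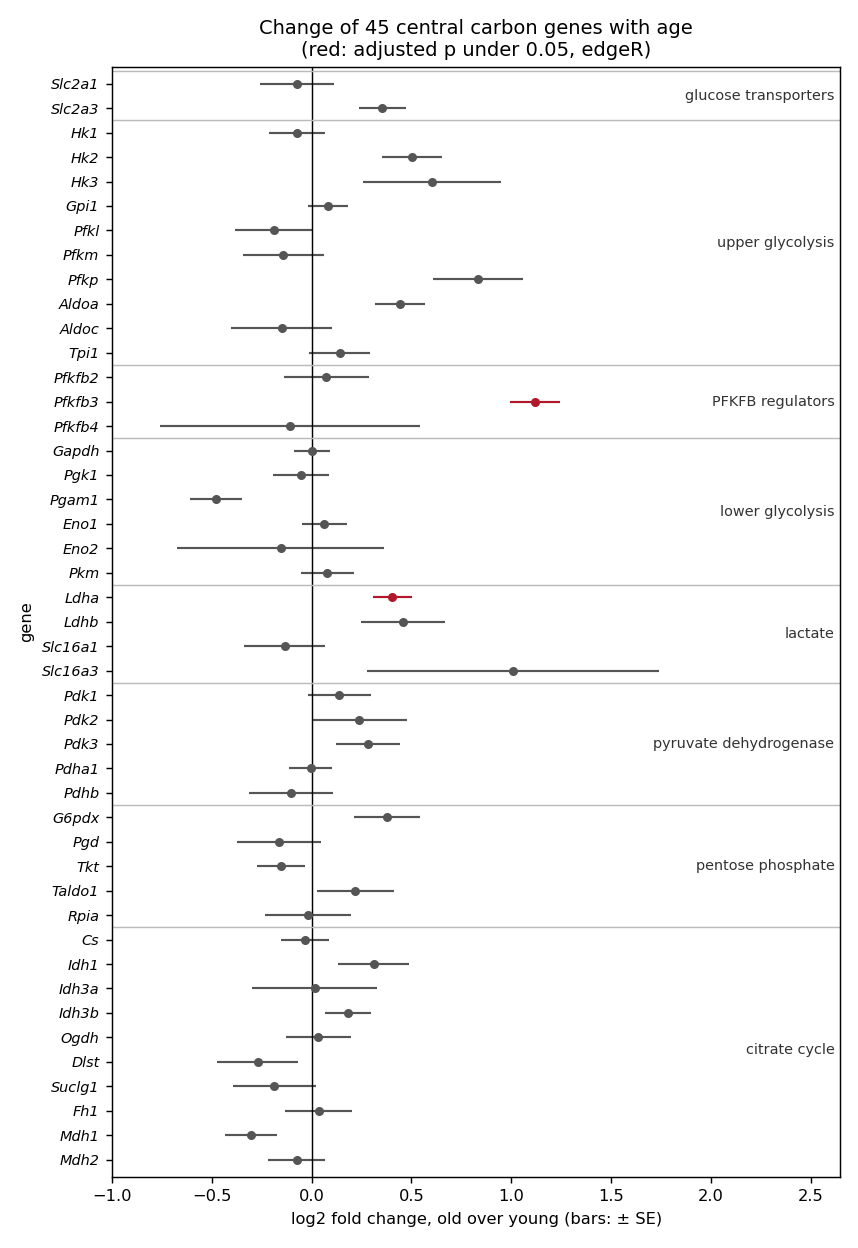
Change of the 45 genes with age. Each point is the log2 fold change of old over young from edgeR, bars are ± SE, and red marks the 2 genes with adjusted p under 0.05, Pfkfb3 at 1.12 and Ldha at 0.40. Most points lie near 0, and the wide bars belong to genes at low levels such as Slc16a3 and Pfkfb4.

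No gene of upper glycolysis passed the test. At an unadjusted p under 0.05 in edgeR, 3 of the 10 were higher and 0 lower, beside 8.84% and 7.63% of all tested genes. The age groups did not overlap for 3 genes higher and 1 lower in old HSCs, beside 11.6% and 10.8% of all tested genes. Pfkp, the platelet form of phosphofructokinase, was at 23.9, 28.5 and 44.8 CPM in young and 53.6, 62.7 and 57.6 CPM in old libraries. The groups did not overlap, and young replicate 3 lay closest to the old ones. The log2 change was 0.83 ± 0.227 (adjusted p = 0.0671, edgeR). Without young replicate 3 it was 1.14 with adjusted p = 0.0126. Pfkp passed in 4 of 13 alternatives, over which adjusted p ran from 0.00592 to 0.209. It shares 748 exon bases with Pitrm1 on the opposite strand, and the sources used here do not say whether the counting used strand. Of the 45 genes, 16 share exon bases with another gene. Among them are Gpi1 (741 with Gm26762), Pdha1 (603 with Map3k15) and G6pdx (418 with Ikbkg), each on the opposite strand.

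Aldoa, the main aldolase, which cleaves fructose 1,6-bisphosphate, was at 129, 157 and 131 CPM in young and 177, 203 and 186 CPM in old libraries. These groups did not overlap either. The log2 change was 0.44 ± 0.124 (adjusted p = 0.0742, edgeR), and 2 of 13 alternatives called it, with adjusted p of 0.0174 to 0.262 over all of them. A second identifier with the symbol Aldoa, at 0 to 0.642 CPM, was not used. Hk2, the hexokinase induced by insulin and hypoxia, is described here after its values were seen. It was at 49.9, 66.4 and 55.2 CPM in young and 84.3, 81.2 and 77.6 CPM in old libraries, with no overlap and a log2 change of 0.50 ± 0.152 (adjusted p = 0.0984, edgeR). The other 7 genes of upper glycolysis had adjusted p of 0.441 or more. Among them Gpi1, the isomerase that follows hexokinase, averaged 270 ± 3.82 CPM in the young group against 286 ± 17.8 CPM in the old (SD, n = 3), and Pfkl, the liver phosphofructokinase, was at 26.9 ± 1.05 and 23.5 ± 0.810 CPM with every old library below every young one. The summed level of the 10 genes was 710.3 to 761.5 CPM in young and 831.2 to 865.8 CPM in old libraries.

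The make-up of the isozyme families is independent of scaling between libraries. Per kilobase of exon, Pfkp made up 13.9%, 15.9% and 21.6% of the 3 phosphofructokinases in young and 26.7%, 31.8% and 30.3% in old libraries. The muscle form Pfkm had 53.5% to 53.9% in young and 44.1% to 49.0% in old libraries, and Pfkl had 24.8% to 32.2% and 24.0% to 24.3%. All 3 shares separated the groups, with Pfkp higher and the other two lower in old HSCs. They rest on the deposited counts, in which the log2 change of Pfkp was 0.83. In the authors' deposited table it was smaller, −0.36 as young over old. Among the hexokinases the share of Hk1, the broadly expressed form, was 48.3% to 56.0% in young and 37.3% to 45.2% in old libraries, without overlap. Shares within a family depend on each other, so a lower share need not mean a lower level. In CPM, the age groups overlapped for Hk1 (log2 −0.07 ± 0.14, adjusted p = 0.86, edgeR). They also overlapped for Pfkm (log2 −0.14 ± 0.203, adjusted p = 0.803, edgeR). The mean share of Hk2 was 7.78 percentage points higher in old HSCs and that of Hk3 2.70 points higher, and for both isozymes the libraries of the age groups overlapped. Aldoa held 85.1% to 88.0% of the 2 aldolases in young and 88.7% to 92.2% in old libraries. No test was made on these shares.

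**Figure D3:**
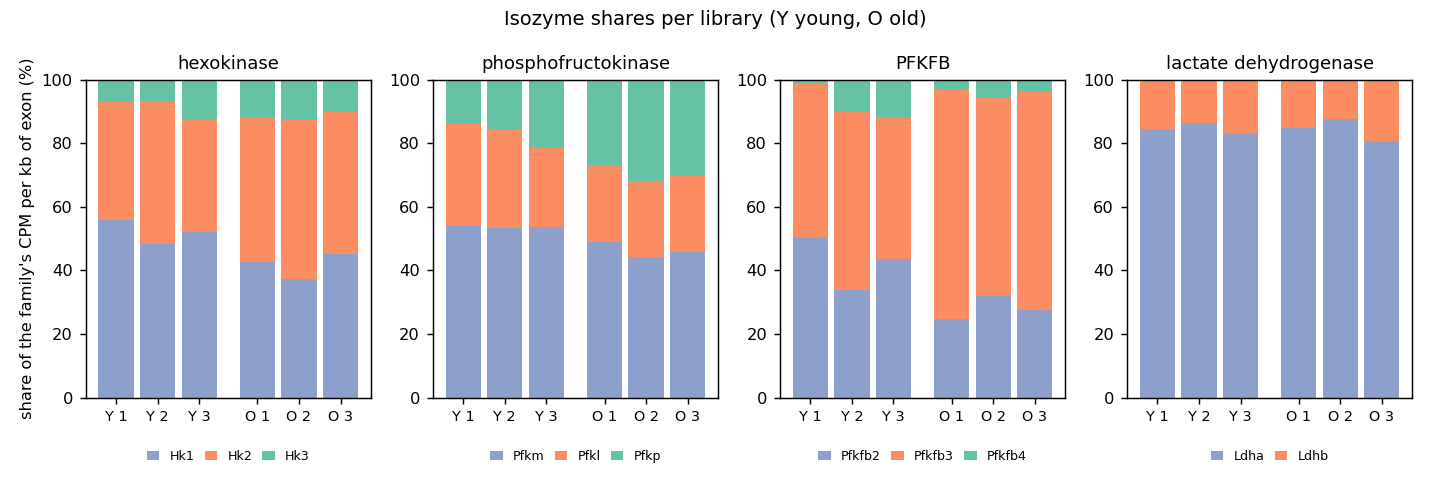
Isozyme shares in each library for hexokinase, phosphofructokinase, PFKFB and lactate dehydrogenase. Stacked bars give each isozyme's percentage of the family's CPM per kilobase of exon, with Y for young and O for old libraries. The Pfkp and Pfkfb3 segments are larger in all 3 old libraries than in any young one, while Ldha stays between 80.8% and 87.8% in both groups.

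The glucose transporters did not pass. Slc2a3 (GLUT3), a transporter with high affinity for glucose, was at 136, 143 and 118 CPM in young and 169, 162 and 176 CPM in old libraries. The groups were apart, with a log2 change of 0.35 ± 0.118 (adjusted p = 0.142, edgeR). Slc2a1 (GLUT1), the widespread basal transporter, was at 49.6, 67.8 and 54.2 CPM in young and 56.6, 62.4 and 44.4 CPM in old libraries, which overlapped. Its log2 change of −0.07 ± 0.184 turned in sign when young replicate 2 or old replicate 3 was left out. Per kilobase, Slc2a3 made up 50.5% to 57.1% of the pair in young and 55.7% to 65.7% in old libraries.

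Lower glycolysis, from glyceraldehyde 3-phosphate to pyruvate, gave 0 calls in 6 genes and a median log2 change of −0.02, which ran from −0.08 to 0.04 when single libraries were left out. Pgam1, the phosphoglycerate mutase, was the gene nearest to a call and pointed down. It was at 150, 134 and 117 CPM in young and 94.1, 93.4 and 100 CPM in old libraries. Every old library was below every young one, with a log2 change of −0.48 ± 0.131 (adjusted p = 0.0669, edgeR). In 4 of 13 alternatives it was called lower, library size as the scaling among them, and adjusted p ran from 0.0173 to 0.222. Gapdh, the dehydrogenase often used as a reference gene, was at 432, 422 and 429 CPM in young and 414, 429 and 441 CPM in old libraries. The groups overlapped, and its log2 change of 0.0023 ± 0.0925 took either sign between settings, −0.05 with library size as the scaling. Pkm, the pyruvate kinase that ends the pathway, was at 118, 155 and 155 CPM in young and 155, 142 and 155 CPM in old libraries. Its log2 change was 0.08 ± 0.133, and −0.04 without young replicate 1. Pkm shares 767 exon bases with Gm49759 on the same strand. Pgk1 and Eno1, which make ATP and phosphoenolpyruvate respectively, had log2 changes of −0.05 ± 0.14 and 0.06 ± 0.115, and Eno2, the neuronal enolase, was under 5 CPM in every library. The summed level of the 6 genes was 938.4 to 957.9 CPM in young and 898.0 to 949.7 CPM in old libraries. Gapdh, Eno1, Pgam1 and Ldha have near-identical processed pseudogenes, to which some of their reads may have been assigned, so their levels are uncertain to that extent.

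**Figure D4:**
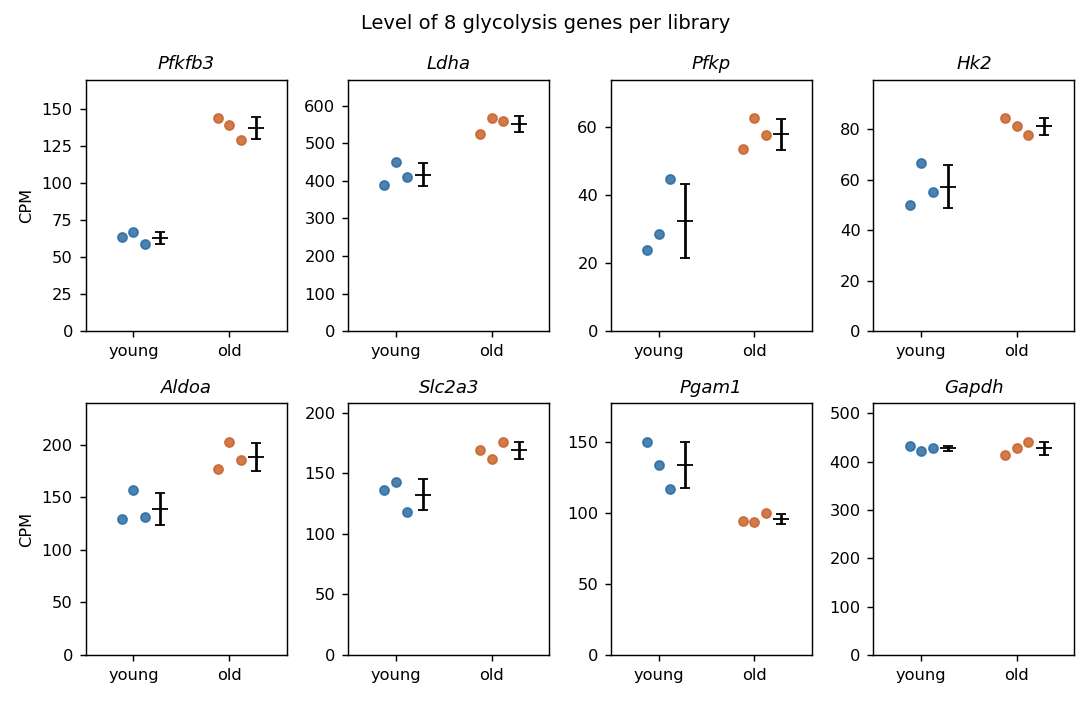
CPM of 8 glycolysis genes in each library. Points are single libraries (blue young, orange old), and bars give the mean ± SD of 3 libraries. Pfkfb3, Ldha, Pfkp, Hk2, Aldoa and Slc2a3 are higher and Pgam1 is lower in every old library than in any young one, and Gapdh lies between 414 and 441 CPM in both groups.

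Lactate handling had a median log2 change of 0.43 over 4 genes, which was 0.13 without old replicate 3. Besides Ldha, which rose, Ldhb, the heart form that favours lactate oxidation, was at 33.7, 33.2 and 39.3 CPM in young and 45.2, 37.3 and 63.2 CPM in old libraries. Old replicate 3 was the highest and old replicate 2 lay within the young range, and the log2 change was 0.46 ± 0.211 (adjusted p = 0.306, edgeR). Ldha kept 83.2% to 86.5% of the family per kilobase in young and 80.8% to 87.8% in old libraries, so the make-up of the family overlapped. The lactate transporter Slc16a1 (MCT1) was at 54.5, 38.8 and 35.8 CPM in young and 36.4, 36.5 and 44.5 CPM in old libraries, with young replicate 1 the highest. Slc16a3 (MCT4), the exporter of glycolytic cells, was at 0.510 to 1.09 CPM in young and 0.633 to 3.16 CPM in old libraries, too low for its log2 change of 1.01 ± 0.733 to be told from 0. The summed level of the group was 477.9 to 521.7 CPM in young and 608.2 to 671.0 CPM in old libraries, of which Ldha is the largest part.

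None of the 5 genes around pyruvate dehydrogenase passed, and all 5 lay within 0.5 of 0 on the log2 scale. The kinases Pdk1, Pdk2 and Pdk3, which switch the enzyme off, had log2 changes of 0.14 ± 0.157, 0.24 ± 0.238 and 0.28 ± 0.161. Pdk2 was at 12.3, 14.4 and 14.5 CPM in young and 16.0, 16.9 and 15.9 CPM in old libraries, apart but not called (adjusted p = 0.699, edgeR). Pdk3 was at 53.8, 63.6 and 59.4 CPM in young and 60.4, 71.5 and 83.1 CPM in old libraries, with overlap. Pdha1, the catalytic subunit, stood at 185, 175 and 166 CPM in young and 176, 172 and 176 CPM in old libraries, a log2 change of −0.0047 ± 0.107 whose sign differed between settings. Per kilobase, Pdk3 made up 55.4% to 60.2% of the 3 kinases in young and 58.5% to 61.8% in old libraries, and Pdk1 had 28.6% to 33.6% and 28.2% to 29.0%.

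The pentose phosphate pathway had 0 calls in 5 genes. Its median log2 change was −0.02, with −0.17 without young replicate 1 and 0.13 without young replicate 2. G6pdx, the dehydrogenase that opens the pathway and makes NADPH, was at 55.4, 62.6 and 67.7 CPM in young and 76.1, 67.8 and 97.2 CPM in old libraries. Old replicate 2 lay just above the highest young library and old replicate 3 well above it. The log2 change was 0.38 ± 0.167 (unadjusted p = 0.043, adjusted p = 0.284, edgeR). Tkt, the transketolase of the non-oxidative branch, was at 161, 159 and 174 CPM in young and 167, 139 and 138 CPM in old libraries, a log2 change of −0.15 ± 0.12. Taldo1, its partner transaldolase, was at 24.2 ± 0.971 and 28.1 ± 2.32 CPM (SD, n = 3) without overlap and without a call (adjusted p = 0.648, edgeR). Pgd and Rpia had log2 changes of −0.16 ± 0.211 and −0.02 ± 0.216. The summed level was 292.3 to 326.3 CPM in young and 288.5 to 327.7 CPM in old libraries, which overlapped.

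The citrate cycle also had 0 calls, in 10 genes, with 5 changes above and 5 below 0 and a median of −0.01 on the log2 scale, which was −0.13 without young replicate 2. Mdh1, the cytosolic malate dehydrogenase of the malate-aspartate shuttle, was at 145, 154 and 126 CPM in young and 126, 106 and 111 CPM in old libraries. The lowest young and the highest old library met at about the same level, and the log2 change was −0.30 ± 0.129 (unadjusted p = 0.0372, adjusted p = 0.263, edgeR). Idh1, the cytosolic isocitrate dehydrogenase that makes NADPH, was at 38.3, 35.2 and 29.5 CPM in young and 42.9, 39.2 and 45.6 CPM in old libraries, apart, with a log2 change of 0.31 ± 0.179 (adjusted p = 0.44, edgeR). Idh3b, a subunit of the NAD-dependent isocitrate dehydrogenase, was also apart at 113 ± 6.52 and 128 ± 4.23 CPM (SD, n = 3), a log2 change of 0.18 ± 0.117. Its catalytic partner Idh3a ranged from 14.6 to 42.6 CPM among young libraries and from 29.4 to 30.2 CPM among old ones. Citrate synthase (Cs), which opens the cycle, was at 152 ± 15.1 and 148 ± 8.82 CPM. The summed level was 779.6 to 848.4 CPM in young and 753.8 to 814.6 CPM in old libraries, which overlapped. The other 5 genes, Ogdh, Dlst, Suclg1, Fh1 and Mdh2, had log2 changes between −0.27 and 0.03.

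Compared per kilobase of exon, the highest of the 45 genes in young HSCs was Ldha at 126 ± 9.25 CPM per kilobase, before Gapdh at 103 ± 1.25 and Pgam1 at 67.6 ± 8.35 (SD, n = 3). In old HSCs Ldha was at 166.5 ± 6.65, Gapdh at 103.5 ± 3.33 and Aldoa at 64.8 ± 4.66, while Pgam1 was at 48.4 ± 1.97. Among the citrate cycle genes of the 45, the highest in young HSCs was Mdh1 at 55.2 ± 5.69. Among their pentose phosphate genes it was Tkt at 22.4 ± 1.07, close to G6pdx at 20.1 ± 2.01. Outside the 45 genes, Sdhd (64.5 ± 11.5) stood above Mdh1 and Prps2 (27.2 ± 1.5) above Tkt in young HSCs. At the low end Slc16a3 was at 0.150 ± 0.0546 and Eno2 at 0.730 ± 0.323 in young HSCs. These lengths are unions of annotated exons, which can exceed the length of the transcripts in use.

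Other genes of the same pathways and regulators of glucose metabolism were taken from a list of 107, of which 98 had a row and 92 were tested. Of these 3 rose (3.26%) and 0 fell, beside 2.45% of all tested genes that were higher and 1.54% that were lower. At an unadjusted p under 0.05, 8 were higher and 5 lower, beside 8.84% and 7.63% of all tested genes. The median log2 change was −0.01. All 3 risen genes belong to the 26 regulators of glucose metabolism. None of the other 66 tested genes, which are further transporters, glycolysis and gluconeogenesis genes, pyruvate and lactate genes, pentose phosphate genes and citrate cycle genes, passed edgeR's test (3 higher and 4 lower at an unadjusted p under 0.05).

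Epas1, which encodes the hypoxia-inducible factor HIF-2α, was at 3.41, 4.59 and 8.71 CPM in young and 18.8, 22.7 and 21.0 CPM in old libraries. Every old library was above every young one, and the change was 3.71-fold (log2 1.89 ± 0.353 SE, adjusted p = 0.0106, edgeR). Hif1a, the related factor, was at 108, 117 and 97.7 CPM in young and 105, 100 and 104 CPM in old libraries, which overlapped (log2 −0.06 ± 0.125, adjusted p = 0.86, edgeR). Mycn, a transcription factor of the Myc family, was at 131, 136 and 109 CPM in young and 221, 201 and 210 CPM in old libraries, a change of 1.68-fold (log2 0.74 ± 0.122 SE, adjusted p = 0.00511, edgeR). Myc, named after its values were seen, was at 362, 358 and 277 CPM in young and 245, 242 and 260 CPM in old libraries, all old below all young, and did not pass (log2 −0.42 ± 0.121, adjusted p = 0.086, edgeR). Txnip, which limits glucose uptake and is itself induced by glucose, was at 1025, 1307 and 883 CPM in young and 1687, 1715 and 1668 CPM in old libraries. The old libraries were closely alike and all above the young ones, a change of 1.58-fold (log2 0.66 ± 0.126 SE, adjusted p = 0.0126, edgeR). The Txnip call was lost without old replicate 1, 2 or 3, with adjusted p of 0.0513, 0.0601 and 0.0565, and over 13 alternatives adjusted p ran from 0.000175 to 0.0601. Epas1 and Mycn passed in all 13 alternatives, with adjusted p of at most 0.0476 and 0.038. Arrdc4, a relative of Txnip that is also named after its values were seen, was at 88.6, 101 and 78.4 CPM in young and 142, 142 and 111 CPM in old libraries and did not pass (adjusted p = 0.0572, edgeR).

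**Figure D5:**
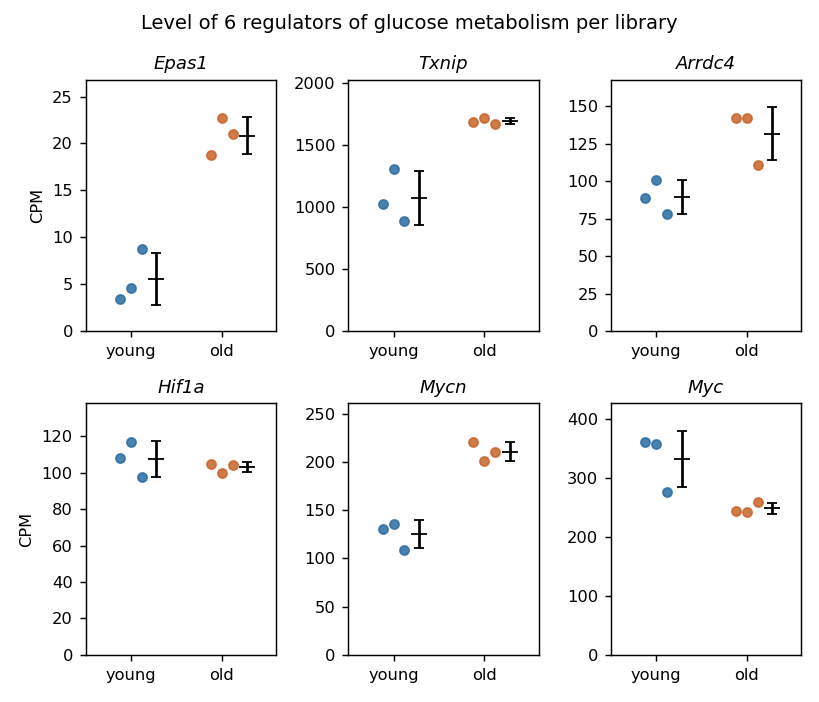
CPM of 6 regulators of glucose metabolism in each library. Points are single libraries (blue young, orange old), and bars give the mean ± SD of 3 libraries. Epas1, Mycn, Txnip and Arrdc4 are higher and Myc is lower in every old library than in any young one, and the Hif1a points overlap.

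The count of changed genes depended on the test. With DESeq2 on the same counts, Pfkfb3, Ldha, Pfkp, Aldoa and Hk2 were higher and Pgam1 was lower in old HSCs, 5 and 1 of 45, beside 4.25% and 3.22% of all genes with an adjusted p. The authors' deposited table has 4 of the 45 genes as higher in old HSCs and 0 as lower, beside 3.57% and 2.6% of its genes. The 4 were Pfkfb3 (adjusted p = 8.28e-09), Hk2 (1.57e-07), Ldha (0.0185) and Aldoa (0.0431) in the authors' deposited table. For 40 of the 45 genes the log2 change in the authors' deposited table, which is written as young over old, was within 0.3 of the one found here with the sign turned. The other 5 were Slc2a3, Hk2, Pfkp, Pfkfb4 and Slc16a3. In the authors' deposited table Hk2 stood at −1.08 and Pfkp at −0.36 (adjusted p = 0.529) and Slc2a3 at −0.01, against 0.50, 0.83 and 0.35 here as old over young, so the size of the change of these 3 genes depends on which table is read. The base mean of Hk2 was 1615 in the authors' deposited table and 1498 when computed from the deposited counts.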

How the data were processed

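RNA of sorted HSCs was purified with a kit for small samples, made into low-input libraries and read as single ends of 50 bases, per the labels' protocols. Salmon, GRCm38, DESeq2, MultiQC and FastQC appear in the submitters' processing notes without versions. The deposited table holds estimated counts, all whole numbers, for 6 libraries. The authors' deposited comparison holds a base mean (a normalised signal), a log2 fold change, a test score and a p-value per gene, and it was used only where named. Counts were fitted in edgeR 4.0.16 (R 4.3.3) over all genes, with its default filter (minimum count 10, minimum total 15), TMM scaling, a quasi-likelihood F test of age over all 6 libraries, and Benjamini-Hochberg adjustment at 0.05, all two-sided. Symbols, coordinates and exon lengths came from GENCODE (GRCm38), and promoters from RefSeq. DESeq2 1.42.0, limma-voom 3.58.1, other scalings and filters, and leaving out each library were alternatives. The fit was also run on simulated counts, whose outcome is not reported here. Members, lists and tests were chosen with earlier results of these data known. Genes described in full are the called genes and, in each group, the 2 with the smallest p and the 1 highest per kilobase, and other genes were picked after their values were seen. No pair of libraries looked deposited again (chi-square per degree of freedom of at least 20.53). Replicate numbers name samples and pair nothing.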

Additional observations from a re-analysis of the deposited data

How the results depend on the processing

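Leaving out each library in turn gave 1 to 2 risen and 0 to 1 fallen genes of the 45, against 2 and 0 with all 6 libraries. Library size as the scaling gave 1 risen and 1 fallen gene, a filter of at least 1 CPM in all libraries gave 4 and 1, and DESeq2 gave 5 and 1. Among the companion genes, against 3 and 0, limma-voom with sample quality weights gave 5 risen, and leaving out each library gave 2 to 4 risen and 0 to 2 fallen. The fallen companions were 1 with library size as the scaling, 1 with the 1 CPM filter and 3 with DESeq2. The cause of these differences was not tested, except that fewer samples or fewer tested genes belong to some settings. The sign of small changes turned. Gapdh had log2 changes of −0.0527 with library size as the scaling, −0.0008 with the 1 CPM filter, −0.0047 with sample quality weights, and −0.0109 to 0.0338 over left-out libraries. Pdha1 had 0.0044 without a filter, 0.002 with DESeq2, 0.0038 with limma-voom, 0.011 with sample quality weights, and −0.0428 to 0.0355 over left-out libraries. Over left-out libraries Slc2a1 ran from −0.1767 to 0.0672, Pfkfb2 from −0.1081 to 0.235 and Pkm from −0.0393 to 0.1421. The median of the PFKFB regulators moved from 0.0743 to 0.5936 with the 1 CPM filter, which drops genes, and that of the pyruvate dehydrogenase group from 0.1391 to 0.2662 without young replicate 3. With library size as the scaling the medians of upper and lower glycolysis were 0.0559 and −0.0797, against 0.1114 and −0.0245. The Pfkp share in old minus young was 12.5 percentage points, and 17.8 without division by length. With 3 libraries a group, SEs of the 45 genes ran from 0.0925 to 0.733 on the log2 scale (median 0.167). Ldha, with an SE of 0.0987, is among the more precise, and larger changes of Hk2, Pgam1, Ldhb, Aldoa and Pfkp did not pass. No paired analysis was made because the labels name no pairing between young and old samples.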
